A study of Arabidopsis thaliana with 22 samples.

Results

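The 5 Arabidopsis DELLA genes (GAI, RGA, RGL1, RGL2 and RGL3), the 3 gibberellin receptor genes (GID1A, GID1B and GID1C) and SLY1, the F-box gene of DELLA breakdown, were followed in etiolated seedlings moved into light. These 9 genes were chosen by locus tag, not by their counts, from the 33602 genes of the count table. The choice was made with earlier results of these data known. All 9 were among the 23011 genes that passed the filter on low counts. RNA was sequenced from whole Arabidopsis thaliana Col-0 seedlings, a wild-type accession, grown for 6 days in darkness on medium with 2% sucrose. The 11 groups held 2 libraries each, 22 in all. In a blue and a red series seedlings were sampled at 0 h, after 6 h of further darkness, and after 1 h and 6 h of light. In a white series they were sampled at 0 h, after 6 h of darkness and after 6 h of light. A 1 h group in white light was not analysed here. No group carried a mutation, a transgene or a hormone treatment.

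Gibberellin is a growth hormone that binds the soluble receptor GID1. The occupied receptor binds DELLA proteins, nuclear GRAS-family regulators that hold back growth, and the SCF complex with the F-box protein SLY1 then marks them for breakdown. DELLA proteins restrain hypocotyl elongation and bind light-signalling factors such as the PIF proteins, which makes the pathway a known link between gibberellin and light in seedlings. The data are transcript counts and say nothing of protein amounts.

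The 5 DELLA genes are named for a short motif near the start of the protein, where the occupied receptor binds. The coding stretch that opens with it is printed here because it is what defines the family and shows how the members differ. Capitals mark the 15 bases of the motif's 5 codons (RefSeq annotation, TAIR10.1, 5′ to 3′).
GAI: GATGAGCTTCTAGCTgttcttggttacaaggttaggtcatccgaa
RGA: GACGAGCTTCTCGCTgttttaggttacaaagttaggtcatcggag
RGL1: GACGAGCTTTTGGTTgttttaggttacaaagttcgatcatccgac
RGL2: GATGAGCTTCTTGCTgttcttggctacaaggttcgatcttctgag
RGL3: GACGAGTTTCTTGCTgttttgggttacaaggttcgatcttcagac
Of these 45 bases, RGA and RGL2 each differed from GAI at 7, and RGL1 and RGL3 each at 10. Within the 15 motif bases the differences from GAI numbered 2 in RGA, 4 in RGL1, 1 in RGL2 and 3 in RGL3. Those in RGA and RGL2 leave the encoded letters DELLA unchanged. In RGL1 the 5 codons read DELLV and in RGL3 DEFLA. Over the whole coding sequence GAI and RGA were 81.5% identical and RGL2 and RGL3 76.7%, while the other DELLA pairs lay between 65.5% and 69.1%. GID1A and GID1C were 83.8% identical, and GID1B was 70.2% identical to GID1A and 70.4% to GID1C. No stretch of 50 bases in the exons of any of the 9 genes occurred in another gene, and no annotated gene overlapped them.

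In RefSeq's TAIR10.1 assembly GAI (AT1G14920) lies at chr1:5148982-5151415 and RGL1 (AT1G66350) at chr1:24748105-24750186, both on the plus strand. RGA (AT2G01570) lies at chr2:255247-257568, RGL2 (AT3G03450) at chr3:819337-821652 and RGL3 (AT5G17490) at chr5:5763989-5766246, all on the minus strand. Each DELLA gene has 1 coding exon. The receptor genes have 2 coding exons and lie on the plus strand, GID1A (AT3G05120) at chr3:1430363-1432844, GID1B (AT3G63010) at chr3:23289243-23291486 and GID1C (AT5G27320) at chr5:9628990-9631291. SLY1 (AT4G24210), with 1 coding exon, lies at chr4:12563279-12564482 on the plus strand.

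The 250 bases before the annotated start are printed for GAI, the DELLA gene called at 1 h in both colours, and for GID1B, the receptor gene called higher in white and lower in red light at 6 h. Capitals mark the PBE-box CACATG, a motif known to be bound by PIF proteins.
GAI (chr1:5148732-5148981, plus strand): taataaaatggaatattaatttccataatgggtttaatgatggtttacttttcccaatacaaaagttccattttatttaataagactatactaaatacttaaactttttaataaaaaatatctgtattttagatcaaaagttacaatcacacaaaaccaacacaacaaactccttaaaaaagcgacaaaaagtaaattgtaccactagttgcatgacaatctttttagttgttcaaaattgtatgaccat
GID1B (chr3:23288993-23289242, plus strand): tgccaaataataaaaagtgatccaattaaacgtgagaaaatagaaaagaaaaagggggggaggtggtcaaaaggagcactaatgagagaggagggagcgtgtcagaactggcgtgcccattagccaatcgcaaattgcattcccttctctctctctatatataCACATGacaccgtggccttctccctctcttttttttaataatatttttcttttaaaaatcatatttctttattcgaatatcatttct
Both strands were searched for the G-box CACGTG, which reads the same on both, and for the PBE-box. The windows of 8 members (all but RGA, whose window was not used here) held no G-box, against 6.486% of 27443 gene windows of the same length that held one. The PBE-box stood once in the GID1B window, 87 bases before the start, and in no window of the other 7 of these genes; 11.09% of all windows held it. These are matches of letters and do not show binding.

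Levels are given as CPM, the count of a gene scaled by its library's normalised size. A dark library held 35000731 to 72685876 counts (12 libraries) and a light library 59054903 to 138804638 (10 libraries). Dark libraries were sequenced 4 to a pool and light libraries 2 to a pool, so pool size and light cannot be told apart. The labels do not say that replicates came from separate cultures, so p-values measure the spread between libraries, which may be technical. The blue replicates correlated at 0.976 to 0.982 over log2 CPM, below the red and white replicates at 0.983 to 0.988. A correlation does not show which library of a pair deviated. Each member called in blue light is also given without the blue libraries numbered 1. That fit leaves 1 library in each blue group, so its adjusted p takes the spread from the red and white series alone. PHYA and PORA, which mark etiolated seedlings, both fell at 6 h in the mean over the 3 colours, PHYA from 1233–1713 CPM in dark libraries to 353–731 CPM and PORA from 136–1196 CPM to 5.10–64.2 CPM. The summed level of 12 seed storage genes lay between 7.09 and 858 CPM and could differ widely within a pair. It was 34.4 and 858 CPM at red 1 h and 52.9 and 608 CPM at red 6 h dark, against 25.0 and 43.3 CPM at red 0 h. That of 8 root markers was 220–345 CPM in dark libraries and 235–378 CPM at 6 h of light. That of 3 guard cell markers was 18.05–38.8 CPM in dark libraries and 11.1–26.0 CPM at 6 h. In white light at 6 h 6 of the 8 root markers were called higher and 2 of the 3 guard cell markers lower, and in the mean over colours 5 and 2, where 23.2% and 18.4% of all genes were called higher and lower in white light and 32.5% and 25.9% in the mean. No marker was at 0 in all libraries, and the part of these markers in the results was not tested. In whole seedlings, fewer cells of a type and less RNA per cell cannot be told apart.

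In darkness RGA was the most abundant DELLA transcript and the receptors were closer to each other. Per kilobase of coding length, RGA made up 55.9% to 59.1% of the summed DELLA level in the 12 dark libraries. GAI followed with 22.8% to 25.9% and RGL1 with 9.996% to 11.9%. RGL2 and RGL3 were the lowest, with 2.68% to 4.32% and 3.25% to 4.54%, and their ranges overlapped. Among the receptors GID1A took 35.9% to 40.6% of the summed level per coding kilobase in dark libraries, GID1C 30.6% to 33.4% and GID1B 26.6% to 31.9%. The ranges of GID1B and GID1C overlapped, as they did without scaling by length (27.3% to 32.7% and 30.2% to 33.0%). Per kilobase of exon length they did not, at 25.7% to 31.0% for GID1B and 31.6% to 34.4% for GID1C. SLY1 lay between 39.6 and 53.3 CPM per coding kilobase in the dark, a range that overlapped that of GID1A, at 39.0 to 45.1. Per kilobase of exon length SLY1 lay below GID1A without overlap, at 14.99 to 20.19 against 21.12 to 24.45. The same held without scaling by length, at 18.05 to 24.3 CPM against 40.4 to 46.8 CPM. The counts behind these levels were 5755 to 12207 per dark library for RGA and 278 to 753 for RGL2, so RGL2 and RGL3 were measured with the least precision.

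A further 6 h of darkness moved none of the 9 transcripts past the test. In the edgeR quasi-likelihood test with Benjamini-Hochberg adjustment over all genes, 0 members were called for 6 h of darkness against 0 h, and 0 had an unadjusted p under 0.05. The background was equally empty, with 0% of the 23011 genes called, 769 at an unadjusted p under 0.05, and 0 called by DESeq2. The member changes between 0 h and 6 h of darkness ran from -0.10 (RGL1) to 0.09 (RGL3) on the log2 scale, with standard errors of 0.04 to 0.10.

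At 1 h of light GAI fell in both colours. GAI encodes the DELLA protein whose deletion allele gave gibberellin-insensitive dwarf plants. It stood at 65.1 and 68.7 CPM in the blue 0 h libraries and at 29.9 and 29.2 CPM after 1 h of blue light. In the red series it went from 57.3 and 69.2 CPM to 31.0 and 30.6 CPM. All 4 libraries at 1 h of light lay below all 12 dark libraries, the lowest of which held 56.35 CPM. The fall was 2.26-fold in blue light (log2 change -1.18 ± 0.16 SE, adjusted p = 2.15e-04, edgeR, n = 2 per group) and 2.05-fold in red light (-1.04 ± 0.16, adjusted p = 0.001). Without the blue libraries numbered 1 the blue value was -1.24 (adjusted p = 0.00577). GAI was the only member called at 1 h in each colour, 1 of 9, where 8.13% of all genes were called in blue light and 4.61% in red light. GAI kept its call under every one of 31 alternatives in each colour. Of these, 22 left out 1 library each, most of them in neither group of the comparison. Leaving such a library out bears little on the change itself, so the 31 are not equal challenges to a call.

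**Figure D1:**
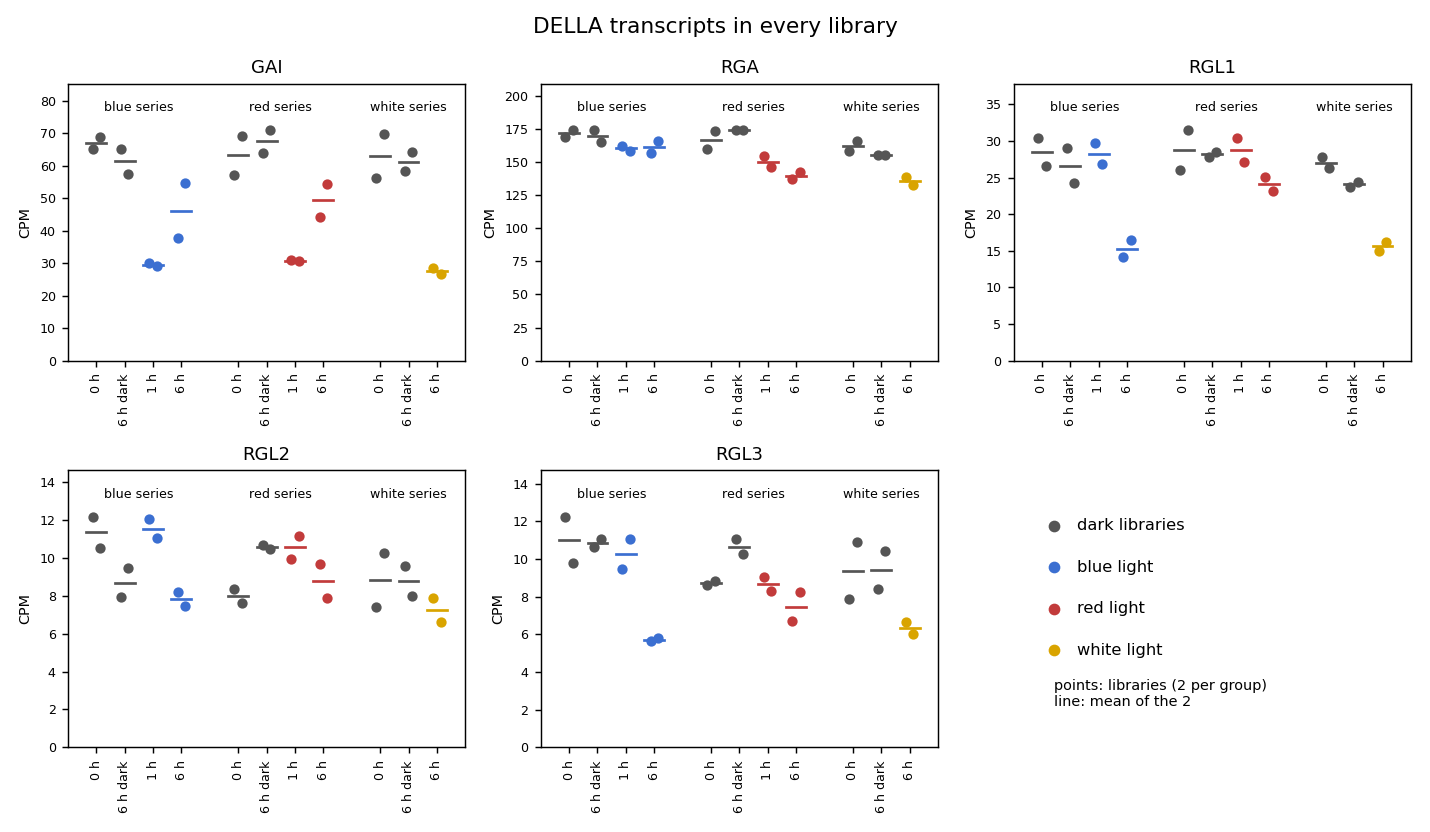
Level in CPM (vertical axes, linear, from 0) of the 5 DELLA transcripts in each of the 22 libraries, by group along the horizontal axes; points are libraries and lines the mean of 2. GAI lay at 29.2–31.0 CPM in the 4 libraries at 1 h of light, against 56.35–71.1 CPM in the 12 dark libraries, and RGL1 lay at 14.1–16.5 CPM only in the blue and white 6 h libraries.

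No other DELLA transcript was called at 1 h. RGA, the closest relative of GAI and the other main DELLA of hypocotyl growth, went from 169 and 174 CPM to 162 and 158 CPM in blue light, a log2 change of -0.10 ± 0.07 (adjusted p = 0.538). In red light it went from 160.0 and 174 CPM to 154 and 146 CPM, a change of -0.15 ± 0.07 (adjusted p = 0.363). The 2 groups did not overlap in either colour, but neither change passed the test. RGL1 changed by -0.01 in blue and by less than 0.01 in red light, with 95% intervals from -0.26 to 0.24 and from -0.25 to 0.25. RGL2, the DELLA best known from seed germination, changed by 0.41 in red light (95% interval 0.06 to 0.76, unadjusted p = 0.0259, adjusted p = 0.243), where its 2 groups did not overlap, and by 0.02 in blue light. RGL3, known from jasmonate and defence responses, changed by -0.10 in blue and by -0.01 in red light, and the blue value was 0.17 without the blue libraries numbered 1 (adjusted p = 0.967). The count ratio of GAI to RGA within a library, which does not depend on library scaling, was 0.349–0.420 in the dark and 0.184–0.209 at 1 h.

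At 6 h of light calls extended to the other DELLA genes. In the mean over the 3 colours all 5 DELLA genes were called lower than in 6 h darkness, a count to be read beside the 25.9% of all genes called lower and the 58.4% called in either direction. Per colour the DELLA genes called lower were 2 in blue light, 3 in red light and 4 in white light, where 14.6%, 10.1% and 18.4% of all genes were called lower. With library totals in place of TMM factors, the share of called genes that were higher went from 55.6% to 41.0% in the mean comparison. The median DELLA change in the mean comparison was -0.55 on the log2 scale, against 0.02 for all genes tested. The same medians were -0.41 against 0.03 in blue, -0.32 against 0.01 in red and -0.57 against 0.01 in white light.

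GAI was lowest in white light at 6 h. In white light it fell from 58.5 and 64.1 CPM in 6 h darkness to 28.6 and 26.6 CPM, which was 2.22-fold (log2 change -1.15 ± 0.16, adjusted p = 6.80e-05). In red light it fell from 63.9 and 71.1 CPM to 44.3 and 54.4 CPM (-0.45 ± 0.16, adjusted p = 0.0466). In blue light it stood at 65.1 and 57.6 CPM in darkness and at 37.7 and 54.7 CPM in light, and the change of -0.41 ± 0.16 was not called (adjusted p = 0.0575). All 6 libraries at 6 h of light lay below all 12 dark libraries, and the blue pair differed more between its replicates than any other pair at 6 h. The red call held in 17 of 31 alternatives. The blue change was called in 7 of 31 alternatives, among them RLE factors (adjusted p = 0.0399), library totals (-0.56, adjusted p = 0.00650), a filter of 5 CPM (0.0364) and DESeq2 (0.0269). It was -0.70 without blue 6 h replicate 2 (adjusted p = 0.00496) and -0.09 without the 4 blue libraries numbered 1 (adjusted p = 0.773). Over the 11 groups the mean GAI level fell into 3 steps, the 6 dark groups at 61.3 to 67.5 CPM, blue and red light for 6 h at 46.2 and 49.3 CPM, and both 1 h groups with white 6 h at 27.6 to 30.8 CPM. Within the upper and the middle step the libraries of the groups overlapped.

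RGL1 and RGL3 fell at 6 h after showing no call at 1 h. RGL1, a less studied DELLA with roles in seeds and flowers, went from 29.0 and 24.2 CPM to 14.1 and 16.5 CPM in blue light (log2 change -0.80 ± 0.12, adjusted p = 1.22e-04). In white light it went from 23.7 and 24.4 CPM to 15.01 and 16.2 CPM (-0.62 ± 0.12, adjusted p = 7.83e-04). The red values of 27.8 and 28.5 CPM in darkness and 25.1 and 23.1 CPM in light differed by -0.22 ± 0.12, which was not called (adjusted p = 0.182). The 4 blue and white libraries at 6 h lay below all 18 others, the lowest of which held 23.1 CPM. Without the blue libraries numbered 1 the blue change was -0.57 (adjusted p = 0.0158).

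RGL3 was lower in all 3 colours. It went from 10.6 and 11.1 CPM to 5.65 and 5.78 CPM in blue light, a 1.90-fold fall (log2 change -0.92 ± 0.16, adjusted p = 4.94e-04). In white light it went from 8.41 and 10.4 CPM to 6.65 and 6.04 CPM (-0.57 ± 0.16, adjusted p = 0.0115), and in red light from 11.1 and 10.3 CPM to 6.68 and 8.23 CPM (-0.51 ± 0.16, adjusted p = 0.0287). Light and darkness did not overlap in any of these pairs. On only the libraries of the contrast the red change was -0.50 and was not called (edgeR, adjusted p = 0.0564). The blue call held under all 31 alternatives and was -0.95 without the blue libraries numbered 1 (adjusted p = 0.0146). The white call ended without white 6 h dark replicate 2 (adjusted p = 0.135) or white 6 h replicate 2 (0.0633), and the red call without either red 6 h dark replicate (0.113 and 0.0716) or red 6 h replicate 1 (0.197).

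RGA was called lower at 6 h in red and white light. It went from 174 and 174 CPM to 137 and 143 CPM in red light, a 1.25-fold fall (log2 change -0.32 ± 0.07, adjusted p = 0.00462). The red call held in 30 of 31 alternatives and ended on only the libraries of the contrast (-0.30, edgeR, adjusted p = 0.0535). In white light it went from 156 and 155 CPM to 139 and 133 CPM (-0.20 ± 0.07, adjusted p = 0.0425). That call held in 17 of 31 alternatives. It ended when any 1 of the 4 white libraries at 6 h was left out, and with no filter (-0.21, edgeR, adjusted p = 0.0770). In blue light the values of 174 and 165 CPM in darkness and 157 and 166 CPM in light overlapped and were not called (-0.07 ± 0.07, adjusted p = 0.499), though library totals alone gave -0.22 (adjusted p = 0.0200). RGL2 lay between 6.60 and 9.69 CPM at 6 h of light and between 7.92 and 10.7 CPM in 6 h darkness. It was called only in the mean over colours (-0.23 ± 0.09, adjusted p = 0.0484), and that call held in 15 of 31 alternatives.

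The make-up of the DELLA transcript pool is given per coding kilobase. The summed level was 151–175 in dark libraries, 132–143 at 1 h and 110–147 at 6 h. The lowest sums were those of white light at 6 h, 110 and 115, and no light library reached the lowest dark library. The GAI share of the sum went from 22.8–25.9% in the dark to 13.025–14.5% at 1 h and 15.1–24.3% at 6 h. The RGA share went from 55.9–59.1% to 62.9–64.4% at 1 h and stood at 57.8–68.3% at 6 h. These sums and shares are descriptions and were not tested.

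**Figure D2:**
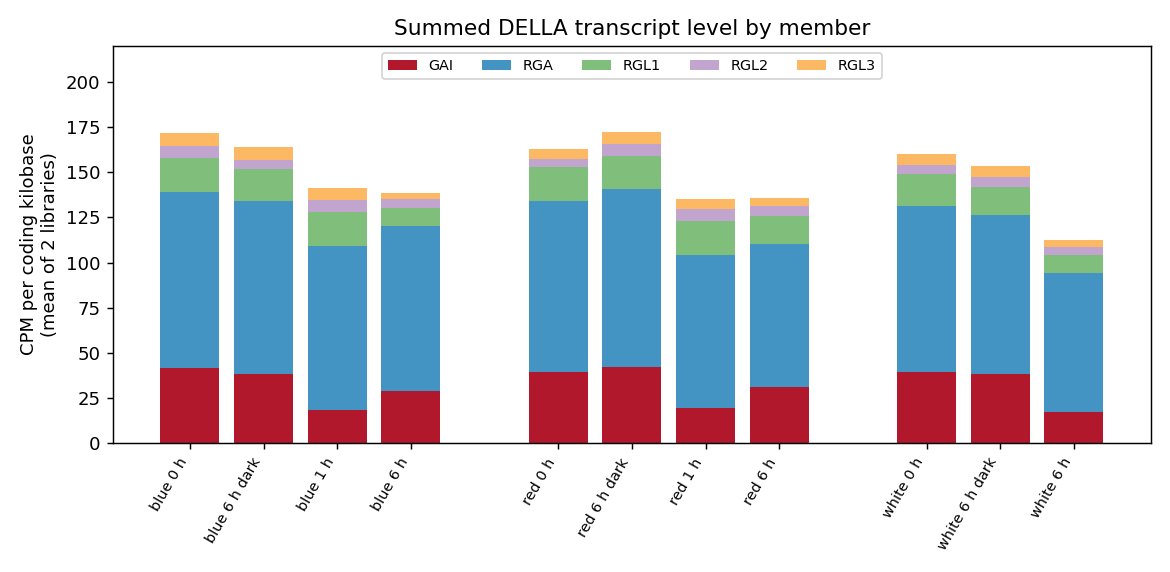
Summed DELLA transcript level (vertical axis, CPM per coding kilobase, mean of 2 libraries, linear from 0) in the 11 groups along the horizontal axis, split by member. The GAI part was smallest at 1 h and in white light at 6 h, and the white 6 h libraries had the lowest sums, 110 and 115.

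No receptor gene was called at 1 h in either colour, and at 6 h the receptor calls differed in direction. GID1B, which encodes the receptor with the highest known affinity for gibberellin, went from 32.0 and 36.2 CPM to 40.1 and 44.6 CPM in blue light, a log2 change of 0.31 ± 0.10 that was not called (adjusted p = 0.0668), and 0.30 without the blue libraries numbered 1 (adjusted p = 0.335). In red light it went from 38.7 and 38.1 CPM to 40.2 and 41.2 CPM (0.09 ± 0.10, adjusted p = 0.790). The 4 libraries at 1 h and the 2 of white light at 6 h, at 40.1 to 47.5 CPM, lay above all 12 dark libraries, at 28.5 to 39.3 CPM. GID1A and GID1C, the closer pair of receptors, changed at 1 h by -0.13 to 0.02 on the log2 scale, with standard errors of 0.07.

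At 6 h GID1B went in different directions by colour. In white light it went from 34.5 and 38.3 CPM in darkness to 41.1 and 47.5 CPM and was called higher (log2 change 0.28 ± 0.10, adjusted p = 0.0305). In red light it fell from 37.2 and 36.4 CPM to 27.2 and 26.6 CPM (-0.45 ± 0.10, adjusted p = 0.00315). In blue light the values of 28.5 and 31.8 CPM in darkness and 29.0 and 32.4 CPM in light overlapped (0.03 ± 0.10, adjusted p = 0.854). The red 6 h libraries were the lowest of all 22 and white 6 h replicate 2 the highest. The white call was 0.15 (adjusted p = 0.328) without that library, and it also ended without white 6 h dark replicate 1 (0.19, adjusted p = 0.260). It ended too with library totals (0.16, adjusted p = 0.197), with no filter (0.0640), with a filter of 5 CPM (0.0581) and on only the libraries of the contrast (0.102). The red call held under all 31 alternatives. In the mean over colours GID1B was at -0.05 ± 0.06 and was not called (adjusted p = 0.493), the only one of the 9 genes without a call there. With library totals alone it was called lower (-0.16, adjusted p = 0.0196).

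GID1A rose at 6 h in blue and white light. It went from 41.4 and 44.4 CPM to 51.3 and 53.4 CPM in blue light (log2 change 0.29 ± 0.07, adjusted p = 0.00568). In white light it went from 40.4 and 43.8 CPM to 51.6 and 51.8 CPM (0.30 ± 0.07, adjusted p = 0.00428). These 4 libraries lay above all 18 others, the highest of which held 47.1 CPM. In red light 43.7 and 44.1 CPM in darkness stood against 43.3 and 47.1 CPM in light (0.04 ± 0.07, adjusted p = 0.721). With library totals in place of TMM factors the rises were 0.14 in blue (adjusted p = 0.124) and 0.17 in white light (adjusted p = 0.0520) and neither was called. On only the libraries of the contrast the blue rise was 0.24 and was not called (edgeR, adjusted p = 0.141). The blue call also ended without blue 6 h dark replicate 1 (adjusted p = 0.0576) and without the blue libraries numbered 1 (0.25, adjusted p = 0.111), and the white call without white 6 h dark replicate 1 (adjusted p = 0.0773). With library totals the median of all genes was -0.12 in blue and -0.11 in white light, against 0.03 and 0.01 with TMM factors.

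GID1C fell in red light at 6 h, from 39.4 and 37.7 CPM to 29.9 and 28.0 CPM (log2 change -0.41 ± 0.07, adjusted p = 7.06e-04), and the call held under all 31 alternatives. In blue light 34.4 and 34.1 CPM in darkness stood against 30.1 and 31.3 CPM in light (-0.16 ± 0.07, adjusted p = 0.104), a change that was called with RLE factors, library totals, a filter of 5 CPM and DESeq2. In white light 36.2 and 39.4 CPM stood against 38.0 and 37.0 CPM, which overlapped (-0.01 ± 0.07, adjusted p = 0.922). The blue and red libraries at 6 h, at 28.0 to 31.3 CPM, lay below all dark libraries of the 3 series, the lowest of which held 32.0 CPM. The summed receptor level per coding kilobase was 99.6–119 in the dark and 111–113 at 1 h. At 6 h it was 105 and 112 in blue, 95.9 and 97.1 in red and 125 and 130 in white light, so the red libraries lay below and the white libraries above all dark ones.

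SLY1, whose F-box protein recruits DELLA proteins to the SCF complex, was called in no single colour. It lay between 18.1 and 24.3 CPM in all libraries, and red 0 h replicate 2 alone was above 22.997 CPM. At 6 h it went from 18.1 and 19.9 CPM to 22.997 and 22.5 CPM in white light (log2 change 0.26 ± 0.11, adjusted p = 0.0657). In red light it went from 18.8 and 18.9 CPM to 20.7 and 22.5 CPM (0.19 ± 0.11, adjusted p = 0.203), and in blue light from 20.2 and 18.8 CPM to 20.8 and 22.01 CPM (0.13 ± 0.11, adjusted p = 0.352). All 6 light libraries lay above all 6 dark ones of the same hour. The mean over colours, 0.20 ± 0.06, was called (adjusted p = 0.0136), and that call ended with library totals alone (0.08, adjusted p = 0.250) and without red or white 6 h dark replicate 1 (adjusted p = 0.0539 and 0.0776). At 1 h SLY1 changed by -0.01 in blue and by -0.21 in red light, and the red change was called without red 0 h replicate 1 (-0.37, adjusted p = 0.0465).

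**Figure D3:**
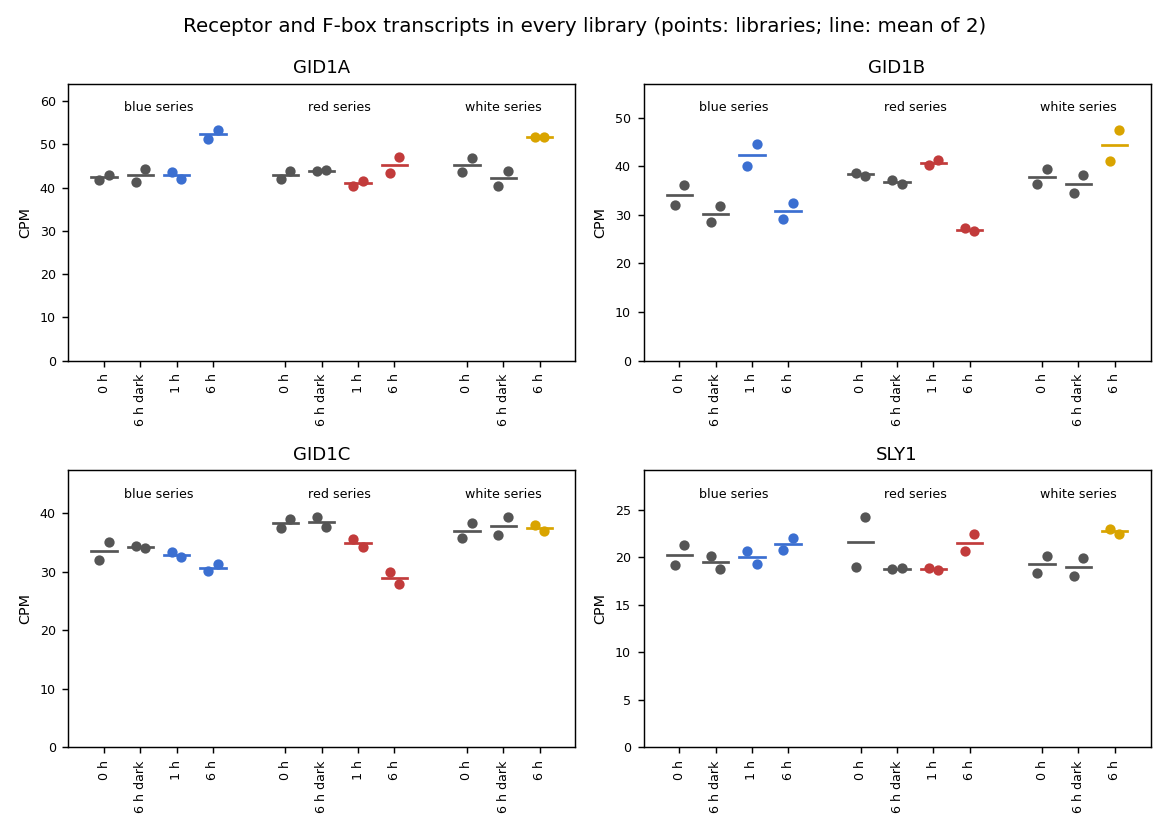
Level in CPM (vertical axes, linear, from 0) of the 3 GID1 receptor transcripts and SLY1 in each of the 22 libraries, by group along the horizontal axes; points are libraries and lines the mean of 2. GID1B lay at 41.1 and 47.5 CPM in white light at 6 h and at 27.2 and 26.6 CPM in red light at 6 h, and GID1A was above 51 CPM only in the blue and white 6 h libraries.

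Counted over all 9 genes, 3 were called in blue light at 6 h (1 higher, 2 lower), where 37.4% of all genes were called. In red light 5 were called, all lower, where 27.7% of all genes were called. In white light 6 were called (2 higher, 4 lower), where 41.6% of all genes were called. In the mean over colours 8 were called (2 higher, 6 lower), where 32.5% of all genes were called higher and 25.9% lower. With library totals alone in edgeR both higher calls ended, GID1A at 0.09 (adjusted p = 0.0552) and SLY1 at 0.08 (adjusted p = 0.250). GID1B was then called lower (-0.16, adjusted p = 0.0196). The members' count was near the share of all genes in blue light, and with RLE factors, library totals, a filter of 5 CPM or DESeq2 it was 5 of 9 there. Fitted on only the libraries of the contrast, the red count was 2.

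**Figure D4:**
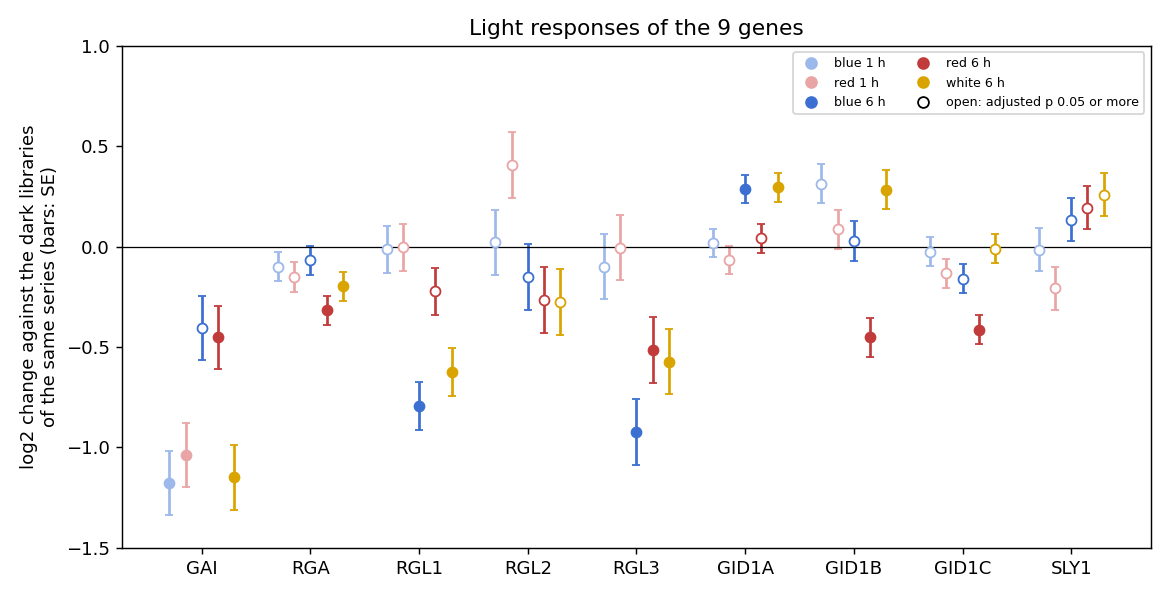
log2 change of the 9 genes (horizontal axis) after light, against dark libraries of the same series (vertical axis, bars are SE, n = 2 libraries per group), for the 5 light groups. The 1 h groups were set against 0 h and the 6 h groups against 6 h of darkness. No dark group was sampled at 1 h, so 1 h of light and 1 h of elapsed time cannot be told apart. GAI lay between -1.18 and -1.04 at 1 h, and GID1B lay at 0.28 in white and at -0.45 in red light at 6 h.

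The responses to different colours were compared directly as interaction contrasts. At 1 h no member differed between blue and red light in edgeR or in DESeq2, with 0 members at an unadjusted p under 0.05. None of the 23011 genes was called by edgeR either (0%), with 1415 at an unadjusted p under 0.05 and 17 called by DESeq2. The GAI responses to 1 h of blue and red light differed by -0.14, with a 95% interval of -0.62 to 0.34, which leaves room for a sizeable difference in either direction.

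At 6 h the difference between red and white light was called for GID1B alone (log2 difference -0.74 ± 0.14, adjusted p = 0.0101), 1 of 9 members where 2.72% of all genes were called. It ended without white 6 h dark replicate 1 (-0.67, adjusted p = 0.0620). For GID1C the red response lay below the white one by -0.40 ± 0.10, which was not called (adjusted p = 0.0523) but was in 8 of 31 alternatives, RLE factors and DESeq2 among them. The GAI response in red light was weaker than in white light by 0.70 (95% interval 0.22 to 1.18, adjusted p = 0.121) and in blue light by 0.74 (0.26 to 1.22, adjusted p = 0.334), and neither difference was called. Blue against red light called 0 members at 6 h by edgeR and by DESeq2, where edgeR called 0.0956% of all genes. In edgeR 5 members had an unadjusted p under 0.05, as had 1460 of the 23011 genes. Blue against white light called 0 members by both tools, where edgeR called 0.0608% of all genes. There 1 member had an unadjusted p under 0.05 in edgeR, as had 1880 of the 23011 genes. The differences between colours set responses of separate series side by side, and series and colour cannot be told apart.

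The responses at 6 h and 1 h were compared within a colour. In blue light the log2 change of GAI was -1.18 at 1 h and -0.41 at 6 h, a weaker fall by 0.77 ± 0.22 (adjusted p = 0.0321). RGL1 and RGL3 went the other way, from -0.01 to -0.80 and from -0.10 to -0.92. Their differences were -0.78 ± 0.17 (adjusted p = 0.00649) and -0.83 ± 0.23 (adjusted p = 0.0259). These 3 of 9 members stood beside 15.4% of all genes called. None of the 3 was called on the libraries of the contrast alone. Without the blue libraries numbered 1 the values were 1.15 for GAI (adjusted p = 0.0445), -0.58 for RGL1 (adjusted p = 0.119) and -1.13 for RGL3 (adjusted p = 0.0760). The GAI call ended without any 1 of 6 of the 8 blue libraries and was 0.47 without blue 6 h replicate 2 (adjusted p = 0.140), and the RGL3 call ended without any 1 of 5.

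In red light the later response differed for GID1B alone, by -0.54 ± 0.14 (adjusted p = 0.0238), 1 of 9 where 10.3% of all genes were called. That call ended without any 1 of 6 of the 8 red libraries. The GAI difference in red light was 0.59 ± 0.22 and was not called (adjusted p = 0.116). White light has no 1 h group here, so its time course could not be compared.

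The rest of the pathway was read from lists chosen by function, each with the genes of smallest adjusted p named. SCL3 stands both among the DELLA partners and among the reported targets, so the counts of the lists are not separate results. The 21 genes of gibberellin synthesis and inactivation include 17 that were tested. At 1 h 5 were called higher and 4 lower in blue light, and 5 higher and 1 lower in red light. Of all genes 5.35% were called higher and 2.78% lower in blue light, and 3.72% and 0.891% in red light. GA2OX1, whose enzyme inactivates gibberellin, rose from 0.197–0.322 to 22.3–25.9 CPM in blue and from 0.0856–0.116 to 17.6–20.1 CPM in red light (log2 change 6.53 ± 0.27 and 7.57 ± 0.29). Its 0 h levels were near the floor, so the size of these changes rests on few reads. Its relative GA2OX2 rose by 2.00 ± 0.19 and 1.33 ± 0.19. At 6 h 5 were called higher and 6 lower in the mean over colours, beside 32.5% and 25.9% of all genes, and GA2OX1 (5.17 ± 0.15) and the synthesis gene GA3OX2 (5.91 ± 0.36) led the list. GA3OX2 held only 0 to 9 counts per library in 6 h darkness, so its fitted change depends on the prior count.

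Of 7 genes of the SCF core and of enzymes that modify DELLA proteins, 0 were called at 1 h in either colour by edgeR, and 0 had an unadjusted p under 0.05. In the mean at 6 h 4 of the 7 were called lower and 0 higher, beside 25.9% and 32.5% of all genes. They were led by SPY, whose enzyme attaches fucose to DELLA proteins (-0.45 ± 0.07, adjusted p = 7.29e-05), and CUL1, the scaffold of the SCF complex (-0.18, adjusted p = 0.00439). SPY was called lower in each colour at 6 h. SNE, an F-box gene related to SLY1, was not called in any comparison and changed by -0.08 ± 0.20 in the mean over colours.

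Of 12 genes for DELLA partners and GRAS regulators, 4 were called lower at 1 h of blue light and 2 at 1 h of red light, where 2.78% and 0.891% of all genes were, and none higher. The zinc-finger genes IDD5 (-1.29 ± 0.16) and IDD10 (-0.67 ± 0.13) led in blue light. BRG3, for a RING protein that binds DELLA proteins (-0.85 ± 0.14), and SCL3, for a GRAS protein that works against DELLA proteins (-0.43 ± 0.10), led in red light. In the mean at 6 h 3 of the 12 were called higher and 6 lower, beside 32.5% and 25.9% of all genes, with BRG3 at -0.94 ± 0.08 and IDD4 at -1.17.

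Among 9 genes named in the literature as early targets that DELLA proteins raise, 3 were called lower at 1 h in each colour and 0 higher, where 2.78% of all genes were called lower in blue and 0.891% in red light. GA20OX2 (-1.41 ± 0.16 in blue and -0.92 ± 0.15 in red light), a synthesis gene, was called in both. GA3OX1, which encodes the last synthesis step, fell by 1.16 in blue light, and XERICO, for a RING protein that raises abscisic acid, fell by 0.54 in red light. In the mean at 6 h 6 of the 9 were called lower and 1 higher, beside 25.9% and 32.5% of all genes, with SCL3 at -0.36 and bHLH154 at -0.63 as the smallest adjusted p. The list median was -0.36 there, against 0.02 for all genes.

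Of the 14 GASA genes, for small cysteine-rich peptides many of which respond to gibberellin, 11 were tested. In blue light at 1 h GASA6 was called lower (-0.63 ± 0.18, adjusted p = 0.0434), where 2.78% of all genes were, and in red light 0 of the 11 were called, with 1 at an unadjusted p under 0.05. In the mean at 6 h 3 were called higher and 6 lower, beside 32.5% and 25.9% of all genes. GASA4 fell by 1.51 and GASA6, called lower at 1 h of blue light, rose by 1.24.

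For the 7 members with a mean of at least 10 CPM, the genes of most similar pattern were found by Pearson's r of group mean log2 CPM over the 11 groups, among 13106 genes. RGL2 and RGL3 were below that mean. For GAI they were BSK5, a kinase gene of brassinosteroid signalling (r = 0.986), and AUX1, an auxin uptake carrier gene (r = 0.982), and 74 genes were above 0.9. For RGA they were MYB70 (r = 0.929) and ROD1 (r = 0.912), the only 2 above 0.9. For RGL1 they were DGR1 (r = 0.981) and the glutathione transferase gene GSTU13 (r = 0.980), and 388 genes were above 0.9.

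For GID1A the most similar were AT5G36160 (r = 0.965) and UBA1, a ubiquitin-activating enzyme gene (r = 0.959). For GID1B they were MYB7 (r = 0.943) and DJ1A (r = 0.931), and for GID1C the xylem peptidase gene XCP1 (r = 0.941) and NAC6 (r = 0.927). For SLY1 they were the galactokinase gene GALK (r = 0.918) and AT1G28660 (r = 0.907). Among the members themselves RGL1 and RGL3 had r = 0.876, RGL1 and GID1A r = -0.93, and GAI and RGA r = 0.669. These are descriptions over 11 groups that share libraries, light treatment and pool size.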

How the data were processed

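RNA-seq was made from whole etiolated Arabidopsis seedlings, per the labels. The deposited table holds raw read counts per gene and library, per the file headers, in whole numbers that were not normalised. The submitters' processing notes give TAIR10 as the build; which aligner, counting tool and strand setting were used is not given in the sources used here. The table has 0 columns of other samples.

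Samples were grouped by their titles. Genes kept by filterByExpr (minimum count 10; 23011 of 33602) were tested with the quasi-likelihood F test of edgeR 4.0.16 (R 4.3.3, limma 3.58.1), with TMM factors and 1 mean per group over 22 libraries, leaving 11 residual degrees of freedom. Adjustment was by Benjamini-Hochberg over all kept genes, with calls at an adjusted p under 0.05. Light groups were set against the dark libraries of their own series, the 1 h groups against 0 h and the 6 h groups against 6 h of darkness, and differences between responses were tested as interaction contrasts, 13 comparisons in all. Scripts were tested on simulated data. DESeq2 1.42.0 was an alternative, with other scalings, filters and left-out libraries. Levels between genes used coding lengths from RefSeq (TAIR10.1), whose locus tags matched 32835 genes and left 767 unmatched. Sequences are RefSeq's. The promoter window of RGA is not reported here.

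The members and lists were chosen with earlier results of these data known. Named were all 9 members, the 2 called genes of smallest adjusted p per list at 1 h and in the mean at 6 h, the 2 genes of most similar pattern per member, and SNE and SPY. RGL1, RGL3 and GID1A were also set beside the members' own correlations, chosen after their values were seen. Intervals cover the spread between libraries.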

Additional observations from a re-analysis of the deposited data

Results flagged for a closer look

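Responses that differed between colours or times by a test of the difference itself came up for 4 genes. GID1B responded to 6 h of red light below its response to white light, by -0.74 on the log2 scale (adjusted p = 0.0101, edgeR), higher in darkness than in light in the red pair and lower in the white pair. In blue light GAI changed by -1.18 at 1 h and by -0.41 at 6 h, a weaker fall by 0.77 (adjusted p = 0.0321). The RGL1 change in blue light went from -0.01 at 1 h to -0.80 at 6 h, a difference of -0.78 (adjusted p = 0.00649). That of RGL3 went from -0.10 to -0.92, a difference of -0.83 (adjusted p = 0.0259). In red light the GID1B response was lower at 6 h than at 1 h by -0.54 (adjusted p = 0.0238). All groups hold 2 libraries, and none of these 5 calls held under all 31 alternatives.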

How the results depend on the processing

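Of 117 member results, 29 were called, 13 of these kept call and direction under all 31 alternatives, and 0 reversed. GAI at 1 h in both colours and in white light, RGL1 and RGL3 in blue light, RGL1 in white light, and GID1B and GID1C in red light at 6 h were among the 13. The number of members called moved as follows, and the cause was not tested. In blue light at 6 h they were 5 in place of 3 with RLE factors, library totals, a filter of 5 CPM in 2 libraries, and DESeq2. In red light at 6 h they were 2 in place of 5 on only the libraries of the contrast, where fewer libraries estimate the spread. For red against white light they were 2 in place of 1 with RLE factors, the 5 CPM filter, and DESeq2. For 6 h against 1 h in blue light they were 0 in place of 3 on the libraries of the contrast and 1 without the blue libraries numbered 1, an alternative chosen after seeing the data. For 6 h against 1 h in red light they were 2 in place of 1 with the 5 CPM filter and 3 with DESeq2. With single libraries left out, the count ranged from 1 to 2 for red light at 1 h, from 3 to 5 for red light at 6 h and from 3 to 7 for white light at 6 h. It ranged from 0 to 2 for red against white light, from 1 to 3 for 6 h against 1 h in blue light and from 0 to 2 for that contrast in red light.

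With the replicate number as a block, calls were gained for GID1B in blue light at 1 h (adjusted p = 0.00484; members called 2 in place of 1), GAI in blue light at 6 h (0.0363), GID1B for blue against red light (0.0433; 1 in place of 0), GID1C for red against white light (0.0391; 2 in place of 1) and GID1B for 6 h against 1 h in blue light (0.0335). Calls ended for RGA in white light (0.0519) and RGL2 in the mean (0.0593). Deviations of same-numbered libraries correlated over 0.1 in 14 of 15 pairs within a series (0.0736 to 0.519) and in 30 of 40 pairs between series. The numbers would have been taken to pair the samples only with every pair over 0.1, so the fit without the block was kept; 11 of 11 groups were closest to their own number, a hint from the data and not the design.

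Over all genes, calls in blue light at 1 h were 1870, and 808 on the libraries of the contrast; in red light at 1 h 1060 and 464; in blue light at 6 h 8597 and 4810. DESeq2 called 141 in place of 22 for blue against red, 189 in place of 14 for blue against white and 1369 in place of 627 for red against white light at 6 h. For 6 h against 1 h in blue light 3553 became 1021 without the blue libraries numbered 1. With library totals, the share of calls that were higher at 6 h went from 61.0% to 41.1% in blue, from 63.6% to 51.4% in red and from 55.9% to 40.7% in white light. Scaled per exonic kilobase, an alternative chosen after seeing the data, the median dark share of RGA was 60.3% in place of 57.8% and that of GAI 21.7% in place of 24.0%. Depth limits RGL2 and RGL3 most, with 278 to 1363 counts per library.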
